A study of Mus musculus with 14 samples.

Results

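Blood endothelial genes, markers of the cell layer that lines blood vessels, were followed in tumours of mice given cyclophosphamide. The 10 genes are Pecam1, Cdh5, Kdr, Tek, Tie1, Emcn, Vwf, Cldn5, Egfl7 and Plvap, taken by symbol from the deposited tables, out of 54532 genes listed there. All 10 had enough counts to be tested. Tumours were grown from 4T1 cells, a mouse mammary carcinoma line that models triple-negative breast cancer, by injecting 1000000 cells under the skin of the mammary area. From day 9, at a tumour volume near 100 mm3, mice received intraperitoneal injections of PBS (4 libraries) or of cyclophosphamide at 100 mg/kg (CTX100, 5 libraries) or 140 mg/kg (CTX140, 5 libraries), each in 100 µL PBS. Cyclophosphamide is an alkylating cytotoxic drug. Injections were given every 6 days, and whole tumours were taken for bulk RNA sequencing 3 days after the third treatment cycle. The strain and age of the mice are not given here. The labels leave unsaid whether every library is its own mouse, so a p-value speaks only to the spread among these libraries, which may be technical.

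Endothelial cells hold together through adherens and tight junctions, and receive growth signals through receptors for VEGF and the angiopoietins. In tumours, vessels are often irregular and leaky, and the endothelium is one small part of a mixture of carcinoma, stromal and immune cells. The 10 genes cover both receptor systems (Kdr, Tek, Tie1), the junctions (Cdh5, Pecam1, Cldn5), the cell surface and the openings of the vessel wall (Emcn, Plvap) and secreted products (Vwf, Egfl7). Most of them are largely restricted to endothelium, but Pecam1 is also carried by platelets and leukocytes, and Vwf is also made by megakaryocytes and carried by platelets.

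Library totals lay between 14.4 and 19.3 in units of 1000000 counts. CTX140 1 stood apart from the other libraries in having the highest share of mitochondrially encoded transcripts, 9.81% of counts, and the highest score on the first principal component. Levels within a gene are given in CPM (per 1000000 counts, after TMM scaling of the libraries), and levels between genes as FPKM, which divides by gene length. In bulk RNA, fewer endothelial cells and less RNA per endothelial cell cannot be told apart.

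Sequences upstream of the start site are shown for 4 of the genes because the 10 genes varied together from library to library and endothelial genes are known as targets of ETS factors, whose core motif is GGAA. RefSeq promoter sequences on build GRCm38.p6 matched 6 of the 10 genes by symbol (Egfl7, Emcn, Tek, Tie1, Kdr and Cldn5). The sequences shown hold up to 250 bases before the start site with exons removed. Capitals mark GGAA, or TTCC where the motif lies on the opposite strand. Emcn and Kdr are the pair of genes most alike across libraries, Egfl7 is the gene least like the others, and Cldn5 had no match.
Emcn, chr3:137340828-137341066, plus strand: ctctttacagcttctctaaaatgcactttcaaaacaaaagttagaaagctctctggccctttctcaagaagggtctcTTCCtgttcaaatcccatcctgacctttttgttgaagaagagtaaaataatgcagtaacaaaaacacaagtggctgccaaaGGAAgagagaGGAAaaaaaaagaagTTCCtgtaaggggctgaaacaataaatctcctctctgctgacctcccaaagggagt
Kdr, chr5:75978459-75978705, minus strand: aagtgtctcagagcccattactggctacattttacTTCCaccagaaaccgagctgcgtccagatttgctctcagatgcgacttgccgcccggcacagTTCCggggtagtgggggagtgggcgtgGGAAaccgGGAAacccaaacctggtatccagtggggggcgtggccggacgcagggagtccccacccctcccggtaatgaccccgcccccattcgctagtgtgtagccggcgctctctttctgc
Egfl7 (the second of its 3 listed starts), chr2:26583615-26583863, plus strand: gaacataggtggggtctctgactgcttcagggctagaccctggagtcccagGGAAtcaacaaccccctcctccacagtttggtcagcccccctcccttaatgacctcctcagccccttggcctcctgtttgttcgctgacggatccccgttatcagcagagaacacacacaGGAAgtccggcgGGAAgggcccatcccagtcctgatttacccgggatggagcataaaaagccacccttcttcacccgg
Cldn5, chr16:18776597-18776846, plus strand: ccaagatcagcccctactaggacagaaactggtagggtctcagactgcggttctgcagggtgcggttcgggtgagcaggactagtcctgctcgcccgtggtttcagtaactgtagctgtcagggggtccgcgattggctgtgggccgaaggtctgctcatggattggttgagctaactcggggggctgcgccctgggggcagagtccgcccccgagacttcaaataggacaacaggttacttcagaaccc
Motifs were counted alike for the 6 genes and for all 27025 genes with a full window in the table, as genes with a match in the 250 bases before any of their listed starts, exons included. GGAA on either strand was found upstream of 5 of the 6 genes, but also of 94.2% of all genes. The longer form AGGAAG, which contains GGAA and which ERG and FLI1 bind, was found upstream of 3 of the 6 genes (Egfl7, Emcn and Tie1), against 32.3% of all genes. The form CGGAAG, which also contains GGAA and which GABP binds, was found upstream of 1 of the 6 (Tie1), against 15.3% of all genes. TATAAA was found upstream of 0 of the 6 genes, against 14.3% of all genes. GATAA occurred upstream of 1 gene (Egfl7), against 25.5% of all genes, and ACAAT upstream of 2 genes (Emcn and Tek), against 30.9%. Each motif was searched on both strands, and a match is a description of the letters and not a binding site.

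Per unit of gene length, Plvap was the most abundant of the 10 genes in every group and Vwf the least. Plvap, the protein of the diaphragms that span fenestrae and caveolae (ENSMUSG00000034845, chromosome 8, 71497765 to 71511752, mm10), averaged 14.9 ± 6.60 FPKM in PBS tumours (SD, n = 4), 18.2 ± 9.11 FPKM in CTX100 tumours (n = 5) and 31.4 ± 16.2 FPKM in CTX140 tumours (n = 5). It lay above the next gene in the order without overlap in all 3 groups. Its reads cannot be separated from those of Gtpbp3 on the opposite strand, since both gene models overlap and it is not known whether the counting used strand. Gtpbp3 had at most 668 counts in a library. The middle of the order held Egfl7, Cdh5, Pecam1, Cldn5, Tie1 and Emcn, and each of them overlapped its neighbour in every group. Cldn5 had rank 3 in PBS tumours, at 6.00 ± 4.22 FPKM, and rank 5 at both doses, at 2.83 ± 1.30 FPKM in CTX100 and 4.93 ± 3.36 FPKM in CTX140 tumours. Vwf averaged 0.183 ± 0.0705 FPKM in PBS, 0.336 ± 0.142 FPKM in CTX100 and 0.671 ± 0.584 FPKM in CTX140 tumours. The gap between Vwf and the next gene up was free of overlap in PBS tumours but not at either dose.

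**Figure D1:**
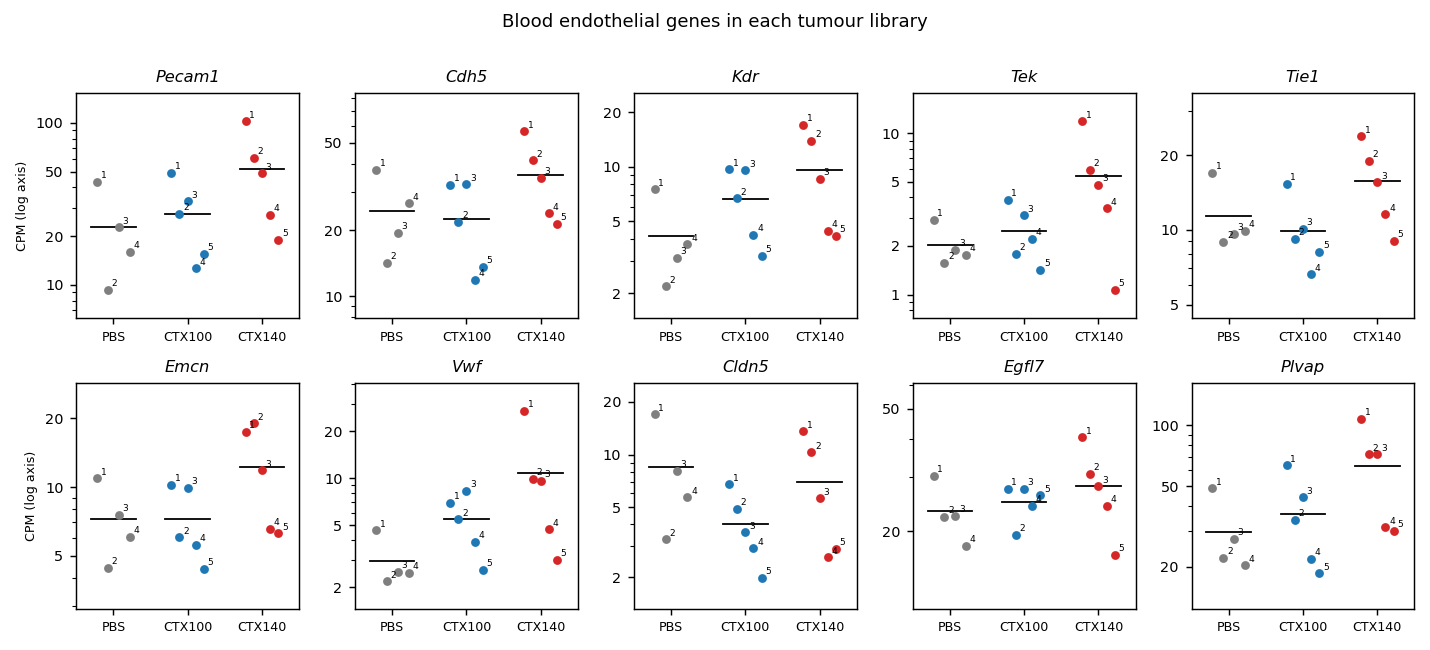
CPM (log axis) of the 10 genes in each library, with PBS (n = 4), CTX100 (n = 5) and CTX140 (n = 5) side by side; points are libraries with their number and lines are group means. Library 1 of PBS is the highest of its group in all 10 panels, and no gene separates any pair of groups without overlap.

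In CTX140 against PBS, 9 of the 10 genes had a higher fitted level and 1 of them, Vwf, passed the test. The median log2 fold change of the 10 genes was 0.92, against 0.02 over all 15360 genes tested. A positive estimate was found for 52.2% of all genes, and 11.1% of all genes were called higher at an adjusted p under 0.05 (21.3% in either direction), so 1 call among 10 genes is close to the background. For 5 of the 10 genes (Vwf, Tek, Kdr, Plvap and Pecam1) the unadjusted p was under 0.05, against 35.7% of all genes. DESeq2 called 3 of the 10 higher (Vwf, Tek and Kdr), against 12.7% of the 18648 genes to which it gave an adjusted p, and 6 had an unadjusted p under 0.05, against 20.7% of the 30701 genes it fitted. Those were not filtered by count, unlike the 15360 of edgeR, so the unadjusted shares of DESeq2 and edgeR have unlike bases. Limma called 0 with either pseudocount, log2(FPKM + 1) or log2(FPKM + 0.1), against 18.9% and 19.8% of all genes, and 5 had an unadjusted p under 0.05 with each, against 34.5% and 34.9%. No gene of the 10 separated CTX140 from PBS libraries without overlap, whereas 14.3% of all genes did.

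Vwf encodes von Willebrand factor, the adhesive glycoprotein that endothelial cells store in Weibel-Palade bodies and that captures platelets (ENSMUSG00000001930, chromosome 6, 125546774 to 125686679). Its PBS libraries held 4.64, 2.19, 2.52 and 2.47 CPM. Its CTX100 libraries held 6.94, 5.44, 8.31, 3.90 and 2.60 CPM. Its CTX140 libraries held 27.0, 9.86, 9.63, 4.71 and 3.00 CPM. CTX140 1 lay far above the rest, 4 of the 5 CTX140 libraries lay above every PBS library, and CTX140 5 fell inside the PBS range. Vwf rose by 1.87 ± 0.55 (SE) on the log2 scale in CTX140 against PBS (edgeR adjusted p = 0.0271). Without CTX140 1 the estimate was 1.20 ± 0.42 and no longer passed (adjusted p = 0.0519), and the call was also lost without PBS 2, PBS 3 or PBS 4 (adjusted p of 0.0608, 0.0786 and 0.0837). In CTX100 against PBS the estimate was 0.88 ± 0.54 (adjusted p = 0.421), and in CTX140 against CTX100 it was 0.99 ± 0.49 (adjusted p = 0.253). Without CTX140 1 that last estimate was 0.32 ± 0.38.

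Since platelets carry von Willebrand factor, platelet genes are given beside it. Of the 10 platelet genes listed, 3 had enough counts to be tested. All 3 (Pf4, Itga2b and Ppbp) were called higher in CTX140 than in PBS, against 11.1% of all genes. The calls of Pf4 and Itga2b held with any 1 library left out, and that of Ppbp, another platelet chemokine, was lost without PBS 3 or PBS 4. Pf4, a chemokine of platelet granules that some macrophages also make, averaged 245 ± 123 CPM in CTX140 tumours (n = 5) and 52.9 ± 26.5 CPM in PBS tumours (n = 4), which is 2.21 ± 0.43 on the log2 scale (edgeR adjusted p = 0.00342). Itga2b, the integrin subunit of the platelet fibrinogen receptor, averaged 5.20 ± 1.21 CPM in CTX140 and 2.77 ± 0.51 CPM in PBS tumours (log2 fold change 0.91 ± 0.24, adjusted p = 0.0140). The summed platelet list ran from 159 to 464 CPM in CTX140, against 26.3 to 91.4 CPM in PBS tumours, and most of it was Pf4. Without Pf4 the other 9 genes summed to 8.79 to 18.6 CPM in CTX140, against 5.26 to 5.73 CPM in PBS tumours. Only 1 of the 10 platelet genes, Gp1bb, a subunit of the platelet receptor for von Willebrand factor, was at 0 in every library. The other 9 had counts in at least 1 library. In the PBS group 3 of the 10 were at 0 throughout, against 1 in the CTX140 group. The part of platelets in the level of Vwf was not tested.

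The receptors Kdr, Tek and Tie1 relay signals for endothelial growth and quiescence. Kdr encodes the main signalling receptor for VEGF-A (ENSMUSG00000062960, chromosome 5, 75932827 to 75978458). Its libraries held 7.53, 2.19, 3.14 and 3.73 CPM in PBS, 9.71, 6.69, 9.57, 4.22 and 3.22 CPM in CTX100, and 17.1, 13.9, 8.59, 4.44 and 4.18 CPM in CTX140. In CTX140 tumours, 3 libraries lay above every PBS library and 2 lay within the PBS range. The log2 fold change was 1.21 ± 0.48 in CTX140 against PBS (edgeR adjusted p = 0.0855) and 0.68 ± 0.48 in CTX100 against PBS (adjusted p = 0.490). DESeq2 called Kdr in CTX140 against PBS (adjusted p = 0.0346). The edgeR test also passed without PBS 1 (1.65, adjusted p = 0.0356) or without CTX140 5 (1.41, adjusted p = 0.0446).

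Tek encodes Tie2, the receptor for angiopoietins (ENSMUSG00000006386, chromosome 4, 94739289 to 94874976). Its libraries held 2.89, 1.57, 1.89 and 1.76 CPM in PBS, 3.86, 1.79, 3.11, 2.21 and 1.42 CPM in CTX100, and 11.9, 5.94, 4.78, 3.42 and 1.07 CPM in CTX140. In CTX140 tumours 4 libraries lay above every PBS library, and CTX140 5 held the lowest Tek value of all 14 libraries, from 20 counts. The log2 fold change in CTX140 against PBS was 1.41 ± 0.50 (edgeR adjusted p = 0.0556; DESeq2 adjusted p = 0.0212). In CTX140 against CTX100 it was 1.12 ± 0.46 (edgeR adjusted p = 0.166). Both estimates turned on single CTX140 libraries. Without CTX140 1 they were 0.90 and 0.61 (adjusted p of 0.152 and 0.455). Without CTX140 5 they were 1.68 and 1.39 and both passed the test (adjusted p of 0.00878 and 0.0391). Without CTX140 4 the estimate against PBS was 1.52 and passed (adjusted p = 0.0499).

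Tie1, the receptor kinase that pairs with Tie2 (ENSMUSG00000033191, chromosome 4, 118471191 to 118490061), held 17.0, 8.95, 9.64 and 9.94 CPM in PBS libraries, 15.4, 9.20, 10.1, 6.62 and 8.17 CPM in CTX100 libraries, and 23.8, 19.0, 15.6, 11.5 and 9.05 CPM in CTX140 libraries. The PBS group held 3 close values and PBS 1 well above them, and 2 CTX140 libraries lay above PBS 1. The log2 fold change was 0.47 ± 0.29 in CTX140 against PBS (adjusted p = 0.264) and 0.67 ± 0.27 in CTX140 against CTX100 (adjusted p = 0.166).

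Among the junction genes, Pecam1 and Cdh5 had positive estimates at 140 mg/kg that did not pass. Pecam1, the adhesion molecule of endothelial borders (ENSMUSG00000020717, chromosome 11, 106654217 to 106750628), held 43.5, 9.36, 22.6 and 16.0 CPM in PBS libraries, 49.0, 27.5, 32.9, 12.7 and 15.5 CPM in CTX100 libraries, and 102, 61.1, 48.9, 27.1 and 18.9 CPM in CTX140 libraries. Only 3 of the 5 CTX140 libraries lay above PBS 1. The log2 fold change in CTX140 against PBS was 1.18 ± 0.54 (adjusted p = 0.133). Cdh5 encodes VE-cadherin, the cadherin of endothelial adherens junctions (ENSMUSG00000031871, chromosome 8, 104101625 to 104144511). It held 37.6, 14.1, 19.5 and 26.5 CPM in PBS libraries, 32.2, 21.9, 32.4, 11.9 and 13.6 CPM in CTX100 libraries, and 56.5, 41.6, 34.7, 23.8 and 21.4 CPM in CTX140 libraries. All 3 groups overlapped widely, with estimates of 0.54 ± 0.37 in CTX140 against PBS (adjusted p = 0.313) and -0.13 ± 0.37 in CTX100 against PBS (adjusted p = 0.899).

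Cldn5, the claudin of endothelial tight junctions (ENSMUSG00000041378, chromosome 16, 18776847 to 18778262), was the only one of the 10 with a negative estimate against PBS at both doses. It held 17.0, 3.28, 8.11 and 5.71 CPM in PBS libraries, 6.76, 4.90, 3.61, 2.92 and 1.98 CPM in CTX100 libraries, and 13.6, 10.3, 5.64, 2.60 and 2.89 CPM in CTX140 libraries. In CTX100 tumours 3 libraries lay inside the PBS range and 2 below it. The log2 fold change was -1.08 ± 0.54 in CTX100 against PBS (adjusted p = 0.311) and -0.28 ± 0.53 in CTX140 against PBS (adjusted p = 0.735). PBS 1 weighed on both: without it the estimates were -0.50 and 0.28.

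Plvap held 48.8, 22.1, 27.5 and 20.3 CPM in PBS libraries, 63.5, 34.1, 44.1, 21.9 and 18.6 CPM in CTX100 libraries, and 108, 71.9, 72.1, 31.3 and 30.0 CPM in CTX140 libraries. In CTX140 tumours 3 libraries lay above every PBS library, and the estimate against PBS was 1.08 ± 0.44 (adjusted p = 0.0939). Without PBS 1 it was 1.41 and passed (adjusted p = 0.0469). Emcn, the endomucin sialoglycoprotein of capillary and venous endothelium (ENSMUSG00000054690, chromosome 3, 137341067 to 137432185), held 10.9, 4.44, 7.55 and 6.04 CPM in PBS libraries, 10.3, 6.03, 9.92, 5.58 and 4.39 CPM in CTX100 libraries, and 17.4, 19.0, 11.8, 6.56 and 6.26 CPM in CTX140 libraries. Its PBS and CTX100 ranges nearly coincided, and 3 CTX140 libraries lay above both. The estimate was 0.76 ± 0.37 in CTX140 against PBS (adjusted p = 0.157) and 0.75 ± 0.35 in CTX140 against CTX100 (adjusted p = 0.213). Emcn was the 1 gene of the 10 whose highest CTX140 library was CTX140 2 and not CTX140 1.

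Egfl7 encodes a secreted protein of the endothelial matrix and hosts the gene of miR-126, a microRNA known for its role in vessel integrity (ENSMUSG00000026921, chromosome 2, 26580014 to 26593120). The mature strand is shown with its seed, bases 2 to 8, in capitals, because this microRNA comes from the same locus as a gene of the set. It lies at chr2:26591402-26591423 on the plus strand of GRCm38.p6, in an intron of 8 of the 9 Egfl7 transcripts that span it, per the GENCODE annotation and RefSeq.
mmu-miR-126a-3p: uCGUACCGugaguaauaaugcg
The microRNA gene had 0 counts in the deposited table. Counts of bulk RNA by gene are no measure of a mature microRNA, so the 0 does not show its absence. Egfl7 itself held 30.4, 22.3, 22.5 and 18.0 CPM in PBS libraries, 27.5, 19.5, 27.4, 24.2 and 26.2 CPM in CTX100 libraries, and 40.4, 30.8, 28.0, 24.2 and 16.8 CPM in CTX140 libraries. It had the smallest within-group SD of the 10 genes, 8.53% of its variance between groups, and an estimate of 0.27 ± 0.21 in CTX140 against PBS (adjusted p = 0.380). Its gene model overlaps Agpat2 on the opposite strand, which had up to 1025 counts in a library, so reads of the pair cannot be told apart.

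**Figure D2:**
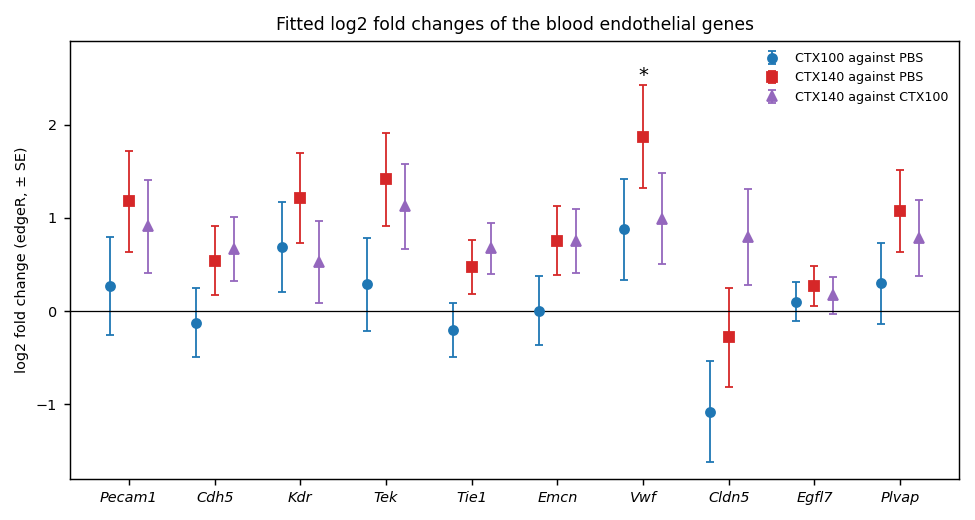
Fitted log2 fold changes with their standard errors for the 10 genes (x axis) in the 3 comparisons; the star marks an edgeR adjusted p under 0.05. Vwf in CTX140 against PBS is the only starred point, and Cldn5 is the only gene whose estimates against PBS lie below 0 at both doses.

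At the lower dose, 0 of the 10 genes were called in CTX100 against PBS by edgeR, against a background of 1.6% of all genes, and 0 had an unadjusted p under 0.05, against 17.9% of all genes. DESeq2 also called 0, against 6.07% of genes, with 1 at an unadjusted p under 0.05, against 10.4% of the 30701 genes it fitted without a count filter. Limma called 0 with either pseudocount, against 0.964% and 1.35% of all genes, and 0 had an unadjusted p under 0.05, against 16.7% and 17.4%. The estimates ran from -1.08 for Cldn5 to 0.88 for Vwf, with a median of 0.18, and 7 of 10 were positive, as were 48.3% over all genes. No gene of the 10 separated CTX100 from PBS libraries without overlap, against 8.72% of all genes. Emcn had an estimate of 0.00 ± 0.37 and Egfl7 of 0.10 ± 0.21. In CTX140 against CTX100, all 10 estimates were positive, as were 53.4% over all genes, with a median of 0.77. Again 0 of the 10 were called by edgeR, against 1.25% of all genes, and 3 (Tek, Tie1 and Emcn) had an unadjusted p under 0.05, against 22.3% of all genes. DESeq2 called 0, against 7.34% of genes, with 5 under an unadjusted 0.05, against 13.1% of the unfiltered genes it fitted. Limma called 0 with either pseudocount, against 0.866% and 0.951% of all genes, with 1 under an unadjusted 0.05, against 19.9% and 19.7%. The groups overlapped for all 10 genes, and did not for 6.04% of all genes. The 3 comparisons share samples, so their directions are not independent of each other.

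The 10 genes differed far more between libraries of 1 group than most genes did. The median within-group SD of their log2 CPM was 0.76, against 0.29 over all 15360 genes tested. Among genes of like level, Pecam1 stood at the percentile 99.7 of within-group SD, Plvap at 99.3 and Cdh5 at 97.3, and the lowest of the 10 was Egfl7 at 81.6. The share of variance that lay between groups had a median of 27.1% for the 10 genes and of 27.8% for all genes.

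The same libraries were high or low for nearly all 10 genes. PBS 1 was the highest PBS library for 10 of the 10 genes, CTX100 1 the highest CTX100 library for 8 and CTX140 1 the highest CTX140 library for 9. PBS 2 was the lowest of its group for 8 genes, CTX100 5 for 6 and CTX140 5 for 9. Summed over the 10 genes, PBS libraries held 220, 90.5, 125 and 110 CPM. The CTX100 libraries held 225, 137, 181, 96.1 and 95.6 CPM, and the CTX140 libraries 418, 283, 240, 140 and 114 CPM. Each group thus spanned more than the distance between the group means, which were 137 ± 57.6 CPM in PBS, 147 ± 56.2 CPM in CTX100 and 239 ± 122 CPM in CTX140 tumours (SD).

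**Figure D3:**
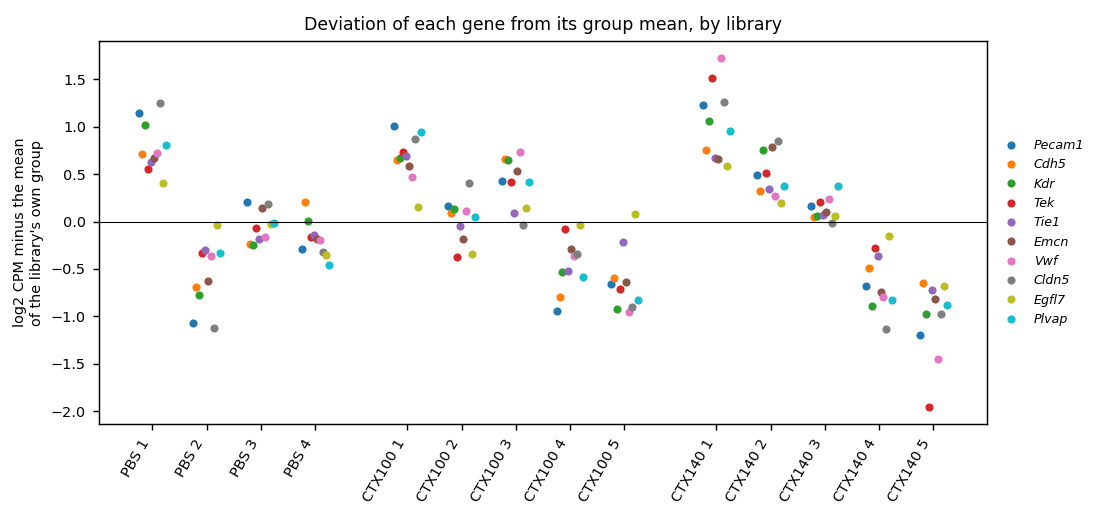
Deviation of each gene's log2 CPM from the mean of its own group, by library; each colour is 1 of the 10 genes, spread sideways for legibility. In PBS 1 and CTX140 1 all 10 genes lie above 0, and in CTX140 4 and CTX140 5 all 10 lie below 0.

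After the group means were removed, every one of the 45 pairs of genes was positively correlated over the 14 libraries. Pearson's r ran from 0.59 to 0.96 with a median of 0.88, and Spearman's rho from 0.67 to 0.97. All 45 pairs passed a permutation test within groups, with Benjamini-Hochberg adjustment over the 45 pairs, by both coefficients. Without the 2 libraries farthest from the median, r ran from 0.55 to 0.97. The strongest pair was Kdr and Emcn, with r = 0.96 (adjusted permutation p = 0.000364) and rho = 0.94 (adjusted permutation p = 0.000525). Cdh5 and Egfl7 made the weakest, with r = 0.59 (adjusted permutation p = 0.0306) and rho = 0.67 (adjusted permutation p = 0.0159). Egfl7 was the least alike to the others, with a median r of 0.73, and Pecam1 and Kdr the most, with medians of 0.94 and 0.93. Without CTX140 1, 42 of the 45 pairs passed by Pearson's r and 44 by Spearman's rho.

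Genes outside the set were ranked by how alike their pattern across libraries was. Among the 12617 candidates, protein-coding and averaging 1 CPM or more, the 10 with the highest mean r to the set were Ptprb, Ushbp1, Tspan7, Fgd5, S1pr1, Mmrn2, Cav1, Lyz1, Tmem88 and Prex2, with mean r between 0.89 and 0.91. The list of other endothelial genes held 3 of these (Ptprb, S1pr1 and Mmrn2). Ptprb, at 0.91, encodes the phosphatase VE-PTP, and S1pr1, at 0.90, the receptor for sphingosine 1-phosphate. Cav1, at 0.89, encodes the coat protein of caveolae. Lyz1, at 0.89, is a lysozyme gene and no endothelial marker, and its counts are uncertain because its near-copy Lyz2 can share reads with it. The best single partner was Fam43a for Emcn (r = 0.98), Dysf for Kdr (r = 0.98), Cav1 for Pecam1 (r = 0.97), Ushbp1 for Plvap (r = 0.97), Hoxd8 for Cldn5 (r = 0.97) and C130074G19Rik for Vwf (r = 0.97). For Tie1 it was Mmrn2 (r = 0.95), for Tek C2cd2 (r = 0.94), for Cdh5 Cdk16 (r = 0.94) and for Egfl7 1700037H04Rik (r = 0.93). These are the highest of many correlations over 14 libraries and are given as descriptions.

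Markers of other cells moved with the set to differing degrees. The median of the mean r to the set was 0.83 for 18 other endothelial genes, of which 9 were among the 100 most alike of all candidates. It was 0.65 for 12 endothelial transcription factors, 0.67 for adipocyte genes, 0.66 for macrophage genes, 0.59 for leukocyte genes and 0.56 for pericyte genes. It was 0.46 for arterial, venous and tip cell genes, 0.44 for 2 lymphatic genes and for 3 skin genes, 0.34 for fibroblast genes and 0.11 for VEGF and angiopoietin genes. Carcinoma genes had 0.07, muscle genes -0.15 and red blood cell genes -0.54, against 0.02 over all candidates. The 3 platelet genes had a median of -0.07, with Itga2b at -0.10, Ppbp at -0.07 and Pf4 at 0.57. The summed adipocyte list held 351, 191, 135, 69.9 and 45.9 CPM in CTX140 libraries, against 13.0, 11.7, 7.06 and 1.37 CPM in PBS libraries. In CTX140 libraries that is the order of the summed endothelial genes. The summed leukocyte list had the same order there, at 1822, 1517, 889, 642 and 634 CPM. It held 683, 689, 752, 602 and 734 CPM in CTX100 libraries and 898, 743, 688 and 604 CPM in PBS libraries. Its order in both of these groups differed from that of the summed endothelial genes. In PBS libraries the order of the adipocyte list differed from it too. In CTX100 libraries the adipocyte list held 47.1, 42.7, 96.5, 19.3 and 17.8 CPM. Its highest was CTX100 3, whereas the summed endothelial genes were highest in CTX100 1. The summed macrophage list ran from 897 to 4257 CPM in CTX140 and from 1280 to 2035 CPM in PBS libraries. The part of these cells in the levels of the endothelial genes was not tested.

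**Figure D4:**
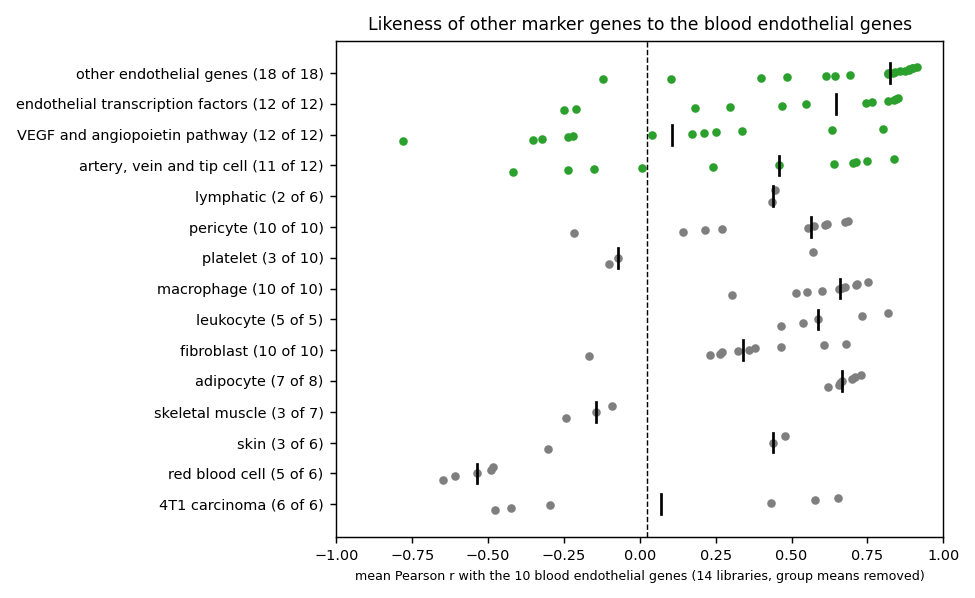
Mean Pearson r of each marker gene (points) with the 10 blood endothelial genes over 14 libraries after removal of group means, by list; ticks are list medians, the dashed line is the median of all candidates, and numbers give genes measured of genes listed. The 18 other endothelial genes have the highest median, 0.83, and red blood cell genes the lowest, -0.54.

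The proportions among the 10 genes were compared as the ratio of each gene's FPKM to that of Cdh5 in the same library, which does not depend on the scaling of the library. Of 27 ratios tested, 9 genes in 3 comparisons, 0 passed an adjusted p of 0.05, and 4 had an unadjusted p under 0.05. The Kdr ratio was 0.140, 0.142, 0.137, 0.165 and 0.110 in CTX100 libraries, against 0.0932, 0.0720, 0.0751 and 0.0657 in PBS libraries. All 5 CTX100 values lay above all 4 PBS values, a log2 difference of 0.86 (two-sided exact permutation p = 0.0159, the smallest that 5 against 4 libraries can give; adjusted p = 0.214). The Vwf ratio was 0.0563, 0.0651, 0.0671, 0.0858 and 0.0499 in CTX100 libraries, against 0.0323, 0.0404, 0.0338 and 0.0244 in PBS libraries. It too separated the groups fully, with a log2 difference of 0.99 (exact permutation p = 0.0159, adjusted p = 0.214). Taken to Pecam1 in place of Cdh5, both the Kdr and the Vwf ratio overlapped between CTX100 and PBS libraries. How often ratios of other genes to Cdh5 separate these groups was not counted.

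In CTX140 against PBS, the log2 Vwf ratio differed by 0.99 (exact permutation p = 0.0317, adjusted p = 0.286) and the Kdr ratio by 0.60 (exact permutation p = 0.0476, adjusted p = 0.321), with overlap in both. With log2(FPKM + 1) of both genes these differences turned to -0.0322 and -0.00701. The log2 Cldn5 ratio differed by -0.79 in CTX100 against PBS and by -0.87 in CTX140 against PBS (exact permutation p = 0.0952 and adjusted p = 0.375 for each). The mean log2 ratio of Tie1 to Cdh5 was -1.28 ± 0.31 in PBS tumours (SD, n = 4), -1.34 ± 0.37 in CTX100 tumours (n = 5) and -1.39 ± 0.08 in CTX140 tumours (n = 5). In CTX140 against CTX100 the Vwf ratio differed by 0.00 and the Emcn ratio by -0.01.

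**Figure D5:**
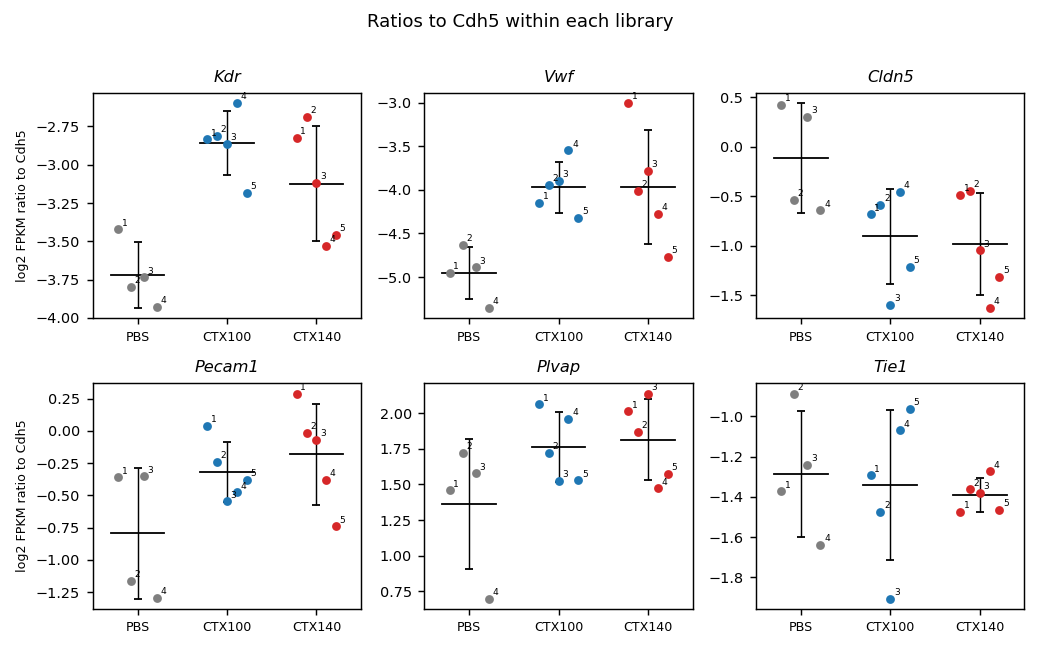
Log2 ratio of FPKM of 6 genes to Cdh5 within each library, in PBS (n = 4), CTX100 (n = 5) and CTX140 (n = 5); numbered points are libraries, lines are means and bars are SD. The Kdr and Vwf ratios of all 5 CTX100 libraries lie above those of all 4 PBS libraries, and the Cldn5 ratios at both doses reach below the PBS range.

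Other genes of the endothelium and of its growth factors were read from lists. Of 18 other endothelial genes, 5 were called higher and 1 lower in CTX140 against PBS, against 11.1% and 10.1% of all genes. Their median log2 fold change was 0.71, against 0.02 over all genes. In CTX100 against PBS 1.6% of all genes were called in either direction. Ackr1, the chemokine-binding receptor of venules, averaged 1.99 ± 0.97 CPM in CTX140 tumours (n = 5) and 0.150 ± 0.187 CPM in PBS tumours (n = 4), which is 3.62 ± 0.73 on the log2 scale (edgeR adjusted p = 0.00298). Its PBS level is near the floor of counting, and CTX100 tumours averaged 0.759 ± 0.606 CPM. Ackr1 thus passed the count filter through treated libraries, and the size of its fold change is uncertain. Mmrn2, an endothelial matrix protein, averaged 12.4 ± 7.25 CPM in CTX140 and 2.03 ± 0.95 CPM in PBS tumours (log2 fold change 2.60 ± 0.51, adjusted p = 0.00291). The others called higher were Cd34, S1pr1 and Ecscr, and Sele, the inducible leukocyte adhesion molecule E-selectin, was called lower by 1.12 on the log2 scale (adjusted p = 0.0392). Ecscr was the only one of the 18 called in CTX100 against PBS, at 39.4 ± 2.65 CPM in CTX100 and 25.4 ± 5.03 CPM in PBS tumours (log2 fold change 0.63 ± 0.15, adjusted p = 0.0412). Eng, the endoglin co-receptor and the most abundant of the 18 per length, averaged 158 ± 9.19 CPM in CTX140 and 168 ± 11.9 CPM in PBS tumours (log2 fold change -0.09 ± 0.09, adjusted p = 0.511). Across libraries Eng and Ecscr hardly varied with the 10 blood endothelial genes. Their mean r was -0.12 and 0.10, the lowest values of the list, against a list median of 0.83. In CTX140 against PBS the calls of Ackr1, Mmrn2 and Ecscr held with any 1 of the 14 libraries left out. That of Cd34 was lost without PBS 3 or PBS 4, that of Sele without PBS 1, PBS 3, PBS 4 or any CTX140 library but CTX140 3, and that of S1pr1 without PBS 2, PBS 3, PBS 4, CTX140 1, CTX140 2 or any CTX100 library. The call of Ecscr in CTX100 against PBS was lost without PBS 3, PBS 4, CTX140 3, CTX140 4 or any CTX100 library (highest adjusted p = 0.141).

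Of 12 transcription factors known in endothelium, 0 were called higher and 1 lower in CTX140 against PBS, against 11.1% and 10.1% of all genes. The lower one was Tcf4, a widely expressed basic helix-loop-helix factor, at 144 ± 11.6 CPM in CTX140 and 276 ± 93.4 CPM in PBS tumours (log2 fold change -0.94 ± 0.16, adjusted p = 0.00126). Tcf4 was also called lower in CTX100 against PBS (-0.67 ± 0.16, adjusted p = 0.0485). The first of these calls held with any 1 library left out, and the second was lost without PBS 3, PBS 4, CTX140 3, CTX140 4 or any CTX100 library (highest adjusted p = 0.168). The ETS factors Erg and Fli1 had estimates of 0.61 ± 0.46 and 0.61 ± 0.36 in CTX140 against PBS (adjusted p of 0.357 and 0.243). The ETS factor Ets1 had a negative estimate, -0.24 ± 0.22 (adjusted p = 0.453). So did Klf2, at -0.33 ± 0.27 (adjusted p = 0.398). Klf2 and Ets1 were the 2 factors of the list highest by FPKM.

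Of 12 genes of the VEGF and angiopoietin pathway, 3 were called higher and 1 lower in CTX140 against PBS, against 11.1% and 10.1% of all genes. The higher ones were ligands and a related secreted factor. Vegfd, a ligand of the VEGF family, averaged 6.09 ± 1.01 CPM in CTX140 and 0.864 ± 0.47 CPM in PBS tumours (log2 fold change 2.81 ± 0.37, adjusted p = 0.000221). It was also called in CTX100 against PBS, at 3.24 ± 1.30 CPM in CTX100 (1.90 ± 0.37, adjusted p = 0.0228). The PBS level of Vegfd is near the floor of counting, so the sizes of its fold changes are uncertain. Vegfc averaged 5.22 ± 1.14 CPM in CTX140 and 1.52 ± 0.06 CPM in PBS tumours (1.78 ± 0.25, adjusted p = 0.000319), and was the 1 gene of the lists of other endothelial, transcription factor, VEGF and angiopoietin, and arterial, venous and tip cell genes that was called in CTX140 against CTX100, by 0.97 ± 0.22 (adjusted p = 0.0440). Angptl4, an angiopoietin-like inhibitor of lipoprotein lipase, was higher by 0.92 ± 0.26 in CTX140 against PBS (adjusted p = 0.0230). Vegfa, the main ligand of Kdr, had an estimate of 0.17 ± 0.16 (adjusted p = 0.464), and its decoy receptor Flt1 of -0.06 ± 0.16 (adjusted p = 0.808). The angiopoietins that bind Tek, Angpt1 and Angpt2, had estimates of -0.36 ± 0.38 and 0.33 ± 0.20 (adjusted p of 0.523 and 0.248). Nrp2, a co-receptor for VEGF-C, was called lower by 0.55 (adjusted p = 0.0254). The calls of Vegfd and Vegfc in CTX140 against PBS held with any 1 library left out. Without PBS 3 that of Angptl4 and that of Nrp2 were lost, as was Angptl4 without PBS 4 and Nrp2 without CTX140 3. In CTX100 against PBS the call of Vegfd was lost without PBS 3, PBS 4, CTX100 3 or CTX100 5. In CTX140 against CTX100 that of Vegfc held only without PBS 2, PBS 3, CTX140 4 or CTX140 5.

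Of 12 genes of arterial, venous and tip cells, 3 were called higher and 2 lower in CTX140 against PBS. Over all genes 11.1% were called higher and 10.1% lower in that comparison, the background for every list compared with PBS in this paragraph. Sema3g, a semaphorin of arterial endothelium, averaged 7.18 ± 6.22 CPM in CTX140 and 0.947 ± 0.741 CPM in PBS tumours (log2 fold change 2.91 ± 0.72, adjusted p = 0.0118). Its PBS level is near the floor of counting, so the size of its fold change is uncertain. Gja4, the arterial gap junction protein connexin 37, averaged 4.81 ± 2.94 CPM in CTX140 and 1.51 ± 0.620 CPM in PBS tumours (1.66 ± 0.40, adjusted p = 0.00917), and the Notch target Hey1 was higher by 1.43 ± 0.49 (adjusted p = 0.0472). Apln, the tip cell ligand apelin that carcinoma cells can also make, averaged 26.1 ± 7.32 CPM in CTX140 and 44.6 ± 11.2 CPM in PBS tumours (-0.77 ± 0.22, adjusted p = 0.0190). Ephb4, the receptor that marks veins, was lower by 0.50 (adjusted p = 0.0369). With any 1 library left out the calls of Sema3g and Gja4 held. That of Apln was lost without PBS 1, that of Ephb4 without PBS 1, PBS 3, PBS 4, CTX140 1, CTX140 2 or CTX140 3, and that of Hey1 without any library but PBS 1 or CTX140 5. For the vessel-covering pericytes, 2 of 10 genes were called higher in CTX140 against PBS, Notch3 (1.42 ± 0.38, adjusted p = 0.0159) and Ndufa4l2 (1.40 ± 0.30, adjusted p = 0.00427), and both calls held with any 1 library left out. In the same comparison 9 of 10 fibroblast genes and 6 of 7 adipocyte genes were called higher, with median log2 fold changes of 1.90 and 4.15, against 0.92 for the 10 blood endothelial genes. In PBS tumours the adipocyte genes Adipoq, Plin4 and Retn averaged 0.682 ± 0.419, 0.588 ± 0.381 and 0.405 ± 0.269 CPM, near the floor. They passed the count filter through treated libraries, so the sizes of their fold changes and of the adipocyte median are uncertain. Cfd averaged 3.12 ± 2.61 CPM there. Of 3 skin genes tested, 2 were called higher, Krt5 (4.79 ± 0.95, adjusted p = 0.00355) and Krt14 (3.41 ± 0.66, adjusted p = 0.00291). In PBS tumours Krt5 and Krt14 averaged 0.305 ± 0.314 and 0.720 ± 0.482 CPM, near the floor, so the sizes of their fold changes are uncertain. Of 6 carcinoma genes, Epcam (3.85), Krt19 (3.57) and Cdh1 (1.37) were called higher, and the call of Cdh1 was lost without PBS 4. The 2 carcinoma genes highest by FPKM, Krt18 and Krt8, had estimates of -0.17 ± 0.16 and -0.06 ± 0.14 (adjusted p of 0.488 and 0.796). The summed carcinoma list averaged 1682 CPM in CTX140 and 1702 CPM in PBS tumours. All these calls of fibroblast, adipocyte and skin genes held with any 1 library left out. Between the doses, 5 of 10 fibroblast genes were called higher in CTX140 than in CTX100, against 0.775% of all genes. With 1 library left out the number was 0 to 7. It was 0 without PBS 4, CTX140 2, CTX140 3 or any CTX100 library but CTX100 5.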

How the data were processed

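Whole 4T1 tumours were sequenced as bulk RNA. The deposited count table holds raw whole-number counts per gene and library. FPKM values were also deposited by the authors, and each equals the count divided by gene length and by 1 constant per library, proportional to the DESeq2 size factor. Per the submitters' processing notes the build was mm10 and DESeq2 was used in a role left unnamed. The aligner, counter and strandedness are not stated in the sources used here. Groups come from the treatment labels.

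Counts were tested with edgeR 4.0.16 (R 4.3.3): TMM, filterByExpr by group (15360 of 54532 genes), robust quasi-likelihood test, two-sided, all 14 libraries in 1 fit, Benjamini-Hochberg adjustment over all genes tested, called at 0.05. Alternatives were RLE and upper quartile factors, other filters, a fold threshold, DESeq2 1.42.0, limma 3.58.1 on log2(FPKM + 1) and log2(FPKM + 0.1), only the groups compared, a replicate block, and each library left out. Ratios used exact permutation, and correlations 100000 permutations within groups of log2 CPM. The ratios were also taken to Pecam1 in place of Cdh5. The edgeR and permutation steps were tested on simulated data. No pair of libraries of the same group agreed within sampling noise (smallest chi-square per degree of freedom 12.4). Pairs from different groups were not checked.

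The 10 genes and all lists were chosen with earlier results of these data known. Genes named outside the 10 are, per list, the called genes with the 3 smallest p in a comparison and the 2 highest by FPKM; the 10 genes most alike to the set; and the best partner of each member. Cd34, S1pr1, Sele, Hey1, Nrp2, Erg, Fli1, Vegfa, Flt1, Angpt1, Angpt2 and Gp1bb were named after their values were seen.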

Additional observations from a re-analysis of the deposited data

Results flagged for a closer look

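Within groups, 57 sets of values were checked for a library far from the others of its group, and 3 sets were marked. The check marks about 1 set in 20 by chance where values are normally distributed. The CPM were not on a log scale and the genes varied together, so that rate may not hold here. Vwf in CTX140 1, at 27.0 CPM, lay far above the other 4 CTX140 libraries, which held 3.00 to 9.86 CPM. Vwf in PBS 1, at 4.64 CPM, lay above the other 3 PBS libraries, which held 2.19 to 2.52 CPM. Tie1 in PBS 1, at 17.0 CPM, lay above the other 3 PBS libraries, which held 8.95 to 9.94 CPM.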

How the results depend on the processing

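Depth limits the low genes most: Tek and Vwf had as few as 20 and 32 counts in a library, and counting intervals cover counting error only. Genes called in CTX100 against PBS numbered 117 with a log2 fold threshold of 1, 857 by DESeq2, 529 with only the compared groups, 148 by limma on log2(FPKM + 1) and 17 to 686 with 1 library left out, against 245. In CTX140 against PBS they numbered 1299 with the fold threshold, 1878 with only the compared groups and 1975 to 3894 with 1 library left out, against 3268. In CTX140 against CTX100 they numbered 98 with the fold threshold, 1285 by DESeq2 and 0 to 1007 with 1 library left out, against 192. Of the 10 blood endothelial genes, the number called in CTX140 against PBS was 0 without a filter, with only the compared groups and by limma with either pseudocount, 3 by DESeq2 and 0 to 3 with 1 library left out. In CTX140 against CTX100 it was 0 to 1 with 1 library left out. Of 13 pairs of libraries with the same number, 6 deviated together with r above 0.1, the 3 pairs of number 1 among them (r over all pairs from -0.19 to 0.43), and not every library was most alike to its own number, so the numbers are not taken to pair the samples. With the replicate block, 181, 2827 and 293 genes and 0, 7 and 1 of the 10 genes were called in the 3 comparisons; the 7 in CTX140 against PBS were Vwf, Plvap, Pecam1, Tek, Kdr, Emcn and Tie1. Directions turned for estimates near 0 and also for some larger ones. Emcn in CTX100 against PBS was -0.0019 with RLE factors, -0.0017 without a filter, -0.0031 by DESeq2, and -0.0025 and -0.0049 by limma with pseudocounts 1 and 0.1. With log2(FPKM + 1), ratios to Cdh5 in CTX140 against PBS turned from 0.60 to -0.00701 (Kdr), from 0.14 to -0.0341 (Emcn) and from 0.99 to -0.0322 (Vwf). In CTX140 against CTX100 they turned from 0.14 to -0.18 (Tek) and from 0.0038 to -0.33 (Vwf). With 1 library left out, log2 fold changes in CTX100 against PBS ran from -0.059 to 0.78 (Pecam1), -0.31 to 0.16 (Cdh5), -0.43 to 0.056 (Tie1), -0.17 to 0.27 (Emcn), -0.016 to 0.25 (Egfl7) and -0.013 to 0.65 (Plvap), and in CTX140 against PBS from -0.67 to 0.28 (Cldn5). Ratios to Cdh5 ran from -0.17 to 0.085 (Tie1, CTX100 against PBS), from -0.22 to 0.027 (Tie1, CTX140 against PBS), and in CTX140 against CTX100 from -0.049 to 0.47 (Tek), -0.19 to 0.045 (Tie1), -0.13 to 0.11 (Emcn), -0.24 to 0.20 (Vwf), -0.25 to 0.083 (Cldn5) and -0.028 to 0.14 (Plvap). Applying the same alternatives to the 55 calls of the other lists was chosen after seeing the data: no estimate of these calls changed sign, 23 calls were lost with a library left out, 20 under another of 9 settings and 32 held throughout. Among calls in CTX140 against PBS, S1pr1 was lost in 4 of the 9 settings, Sele and Angptl4 in 3, Nrp2 and Ephb4 in 2, and Apln, Hey1 and Cd34 in 1; Tcf4 in CTX100 against PBS was lost in 4 and Vegfc in CTX140 against CTX100 in 3. The causes of these changes were not tested.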

Other observations

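Lymphatic endothelium was read from 6 genes, of which 3 had enough counts to be tested. Prox1, the defining factor of lymphatic endothelium, was too low to be tested, as were Reln and Mmrn1. Lyve1, a hyaluronan receptor of lymphatic endothelium and of some macrophages, averaged 7.08 ± 4.56 CPM in CTX140 tumours (n = 5) and 11.9 ± 7.67 CPM in PBS tumours (n = 4), a log2 fold change of -0.75 ± 0.54 that did not pass (edgeR adjusted p = 0.338). Pdpn, which lymphatic endothelium and fibroblasts both carry, averaged 55.4 ± 23.2 CPM in CTX140 and 14.7 ± 4.13 CPM in PBS tumours (1.91 ± 0.28, adjusted p = 0.000495).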
